A study of Mus musculus with 9 samples.

Results

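The genes described here encode 8 complement components that macrophages are known to make: C1qa, C1qb, C1qc, C2, C3, Cfb, Cfp and Serping1. They were taken by name, as the rows of the deposited gene table whose Ensembl identifier carries one of these symbols in GENCODE M21, a rule that uses no measured value. All 8 were found, among 28137 genes in the table. RNA-seq of RAW264.7 cells, a mouse macrophage-like tumor line grown as a single line in culture, was compared between 3 groups of 3 libraries. The groups were a control siRNA (NC), SFRP2 siRNA, aimed at a secreted modulator of Wnt signaling, and RAB6A siRNA, aimed at a small GTPase of Golgi transport. Per the labels, every library came from cells that received 60 nM of siRNA for 6 hours, rested 12 hours in full medium and then received lipopolysaccharide (LPS) at 100 ng/ml for 24 hours, so that no library shows the cells without LPS. The text of the study also names IFN-γ for this step, which the labels do not. Its siRNA dose and its time in culture after transfection differ from the labels too, and the labels were used here. Titles of the SFRP2 siRNA group name the treatment only as siRNA-1, siRNA-2 and siRNA-3. It is not stated whether these libraries are repeats of 1 treatment or different siRNAs. Every library title also carries 6H, and the step this time refers to is not stated. No label says that libraries of a group came from separate cultures, and p-values then measure only the spread between these libraries.

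Complement is a cascade of plasma proteins that tags microbes and dying cells for uptake. In the classical pathway, C1q, built from the chains of C1qa, C1qb and C1qc, recognizes antibody or damaged surfaces and sets off cleavage of C4 and C2, while the C1 inhibitor encoded by Serping1 restrains the proteases bound to C1q. In the alternative pathway, factor B (Cfb) pairs with C3b, and properdin (Cfp) holds that convertase together. Both routes meet at C3, the central protein of the cascade. The liver makes most plasma C3, factor B and C2, but C1q and properdin come mainly from myeloid cells, and tissue macrophages are known for their C1q.

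The promoters of C3 and Cfp are shown because these were the members with differences that passed the test. Sequences of 300 bases, from 250 bases before to 50 after the gene start, were taken from RefSeq (GRCm38.p6), which gave an entry for 4 of the 8 members. Both are printed 5′ to 3′ on the strand of the gene, which is the minus strand. Capitals mark matches to 6 motifs searched on both strands.
C3, chr17:57228087-57228386: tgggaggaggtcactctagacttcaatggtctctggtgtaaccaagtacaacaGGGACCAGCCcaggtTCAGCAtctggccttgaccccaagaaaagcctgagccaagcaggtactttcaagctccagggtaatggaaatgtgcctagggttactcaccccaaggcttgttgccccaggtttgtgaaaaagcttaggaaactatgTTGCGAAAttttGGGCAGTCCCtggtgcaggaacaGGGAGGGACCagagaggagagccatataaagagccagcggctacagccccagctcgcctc
Cfp, chrX:20931506-20931805: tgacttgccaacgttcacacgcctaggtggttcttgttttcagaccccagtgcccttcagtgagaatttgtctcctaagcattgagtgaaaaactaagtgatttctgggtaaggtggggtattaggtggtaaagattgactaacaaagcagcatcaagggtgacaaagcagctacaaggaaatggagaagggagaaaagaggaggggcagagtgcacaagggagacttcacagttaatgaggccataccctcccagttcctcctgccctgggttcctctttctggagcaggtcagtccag

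The C3 promoter held 3 matches to the kappaB motif (GGGA, any 4 bases, then CC), a binding pattern of NF-κB. Their first bases lay 197, 33 and 10 bases upstream of the start, and the match at 33 was on the other strand. The promoter also held a match to the C/EBP motif TTGCNNAA at 45 bases upstream. A match to the MARE half-site TGCTGA, read on the other strand as TCAGCA, lay 182 bases upstream. The Cfp promoter held no match to any of the 6 motifs. Over all 27025 promoters of this length, 20.5% held the kappaB motif, 10.8% the C/EBP motif and 19.1% the MARE half-site. The other motifs were the ISRE (GAAA, any 2 bases, then GAAA, in 3.49% of promoters), the GAS element (TTCNNNGAA, in 8.47%) and the PU.1 core (GAGGAAG, in 13.5%), and neither printed promoter held them. A match of letters does not show that a factor binds there.

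The label of a macrophage product held for these cells only in part. Levels are given as FPKM, that is, fragments scaled to exon length and library size, and can be compared between genes, except that those of C2 and Cfb are understated where exons overlap, as described with these genes. Only 2 of the 8 members had a mean of at least 1 FPKM over the 9 libraries, and 4 of 8 had a mean of at least 0.5, or 5 of 8 with C2 and Cfb taken per own exon bases. Cfp, the stabilizer of the alternative pathway convertase, stood at 117 ± 6.19 FPKM (mean ± SD, n = 3) in NC, higher than 98.8% of the genes in the table. C3 stood at 2.35 ± 0.121 FPKM, higher than 69.3% of genes. Cfp made up 92.2% to 97.1% of the summed FPKM of the 8 members across the 9 libraries. The other 6 members had fewer than 100 reads in every library.

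In NC, the order of mean FPKM as deposited was Cfp, C3, C1qb, Serping1, C2, Cfb, C1qa and C1qc. Cfp lay above C3 and C3 above C1qb with no overlap between libraries, in each of the 3 groups. C1qb and Serping1 overlapped in every group, and so did most neighbours below them. Among the 4 lowest values, each overlapped its neighbour in every group, and their order was not resolved. Per own exon bases, Cfb had 0.555 ± 0.263 FPKM in NC (n = 3), close to C1qb at 0.591 ± 0.253 and Serping1 at 0.566 ± 0.208 FPKM. The place of Cfb in the order thus depends on how shared bases are treated. This takes reads to fall evenly over the own bases of Cfb, which was not tested.

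**Figure D1:**
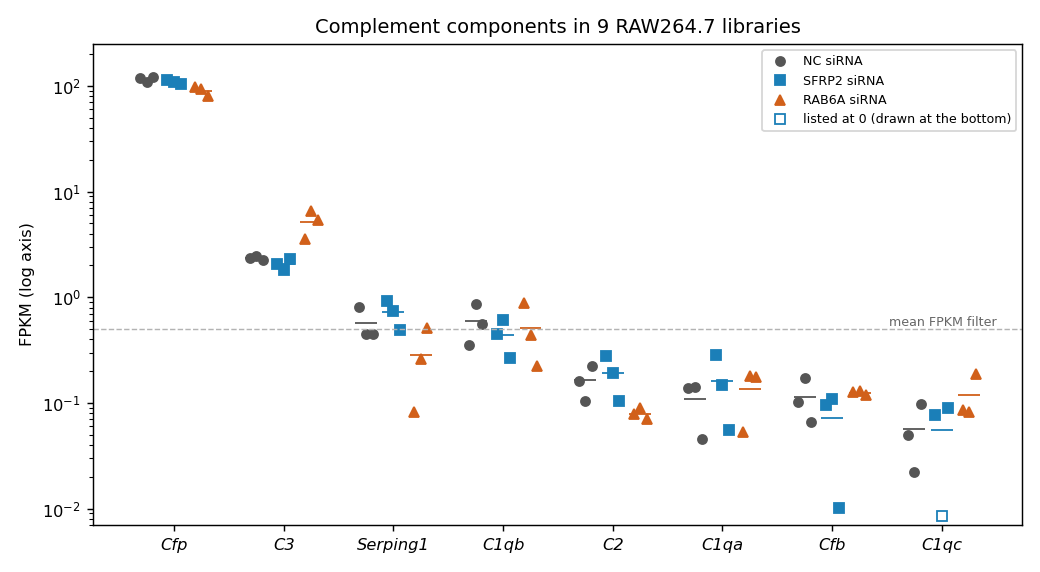
FPKM of the 8 members on a log axis, with 1 point per library, a short line at each group mean, a dashed line at 0.5 FPKM and an open square for the value listed at 0. Cfp lies near 100 FPKM in every library, C3 between 1.80 and 6.60 FPKM, and the other 6 members below 1 FPKM.

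Depth was 32758729 to 47149258 reads per library, as recovered from the steps of the FPKM values. Sfrp2, the target of SFRP2 siRNA, had 2 to 4 reads in each library, which is too few to check the labels SFRP2 siRNA and NC. Rab6a, the target of RAB6A siRNA, had 25.7 ± 1.48 FPKM in NC and 20.7 ± 0.445 FPKM in the libraries labeled RAB6A siRNA, a log2 fold change of -0.31 (SE 0.06, adjusted p = 0.0024 from limma, n = 3 per group). This was 0.808 times the NC mean, in a comparison where 74.1% of all genes tested were called. The call for Rab6a is therefore a weak check of the label. The RAB6A siRNA libraries stood apart from the rest across the table. Of the macrophage markers, 10 of 10 were listed and 9 of 10 had a mean of at least 0.5 FPKM, while Mertk was near 0. Their summed FPKM ran from 3050 to 3350 in NC, from 2687 to 2947 in SFRP2 siRNA and from 2164 to 2309 in RAB6A siRNA libraries. The markers did not move together: mean FPKM in NC and RAB6A siRNA was 872 and 214 for Lyz2 and 73.6 and 27.0 for Csf1r, but 56.3 and 56.3 for Adgre1, 18.3 and 20.6 for Ptprc and 23.1 and 24.7 for Itgam. The summed FPKM of 8 LPS response genes ran from 5232 to 5536 in NC, from 4933 to 5216 in SFRP2 siRNA and from 2978 to 3143 in RAB6A siRNA. Acod1 was the main part of the lower sum, with mean FPKM of 2458 in NC and 624 in RAB6A siRNA. Tnf (1050 and 659), Il1rn (633 and 335), Cxcl2 (310 and 189) and Il6 (95.9 and 49.8) were lower too. Ptgs2 was higher, with 492 and 789, as were Nos2 (340 and 392) and Il1b (15.0 and 17.4). In bulk RNA, fewer cells that make a transcript and less of it per cell cannot be told apart.

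Cfp had 118, 109.8 and 122 FPKM in the NC libraries and 114, 108 and 106 FPKM in the SFRP2 siRNA libraries. In the RAB6A siRNA libraries it had 97.1, 93.1 and 80.2 FPKM. All 3 RAB6A siRNA libraries lay below all 6 others, while NC and SFRP2 siRNA libraries overlapped. With 4561 to 8985 reads per library, Cfp was the most precisely counted member. Cfp lies at chrX:20925454-20931555 in GRCm38 (ENSMUSG00000001128) and shares no exon base with another gene.

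Cfp was lower with RAB6A siRNA, at 0.772 times the NC mean, with a log2 fold change of -0.38 (SE 0.08, 95% confidence interval -0.57 to -0.18, adjusted p = 0.0046 from limma on log2(FPKM + 0.1)). A two-sided exact permutation test on FPKM values gave p = 0.1, the smallest that 3 libraries against 3 allow. Of all genes tested, 67.7% had a larger absolute change. Against SFRP2 siRNA, the RAB6A siRNA libraries were lower by a log2 fold change of -0.28 (SE 0.08, adjusted p = 0.0167 from limma). That call was lost without SFRP2 siRNA replicate 1 (log2 fold change -0.25, adjusted p = 0.0572 from limma).

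C3 had 2.35, 2.48 and 2.24 FPKM in the NC libraries and 2.05, 1.80 and 2.31 FPKM in the SFRP2 siRNA libraries. In the RAB6A siRNA libraries it had 3.59, 6.60 and 5.45 FPKM. Each RAB6A siRNA library lay above all 6 others, and these 3 libraries also spread more than those of the other groups. The counts behind these values were 359 to 1284 reads per library. C3 lies at chr17:57203970-57228136 (ENSMUSG00000024164) and shares no exon base with another gene.

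C3 was higher with RAB6A siRNA, at 5.21 ± 1.52 FPKM against 2.35 ± 0.121 FPKM in NC (n = 3 each), a ratio of 2.21. The log2 fold change was 1.07 (SE 0.20, 95% confidence interval 0.60 to 1.54, adjusted p = 0.0019 from limma), and 16.4% of the genes tested had a higher one. The exact permutation test again gave its smallest p of 0.1. The adjusted p stayed under 0.05 in every alternative run, but the change did not pass the fold threshold of the study, an absolute log2 fold change over 1, without RAB6A siRNA replicate 2 (0.88), with a pseudocount of 1 (0.86) or after quantile normalization (0.99). Against SFRP2 siRNA, the ratio was 2.54 and the log2 fold change 1.27 (SE 0.22, adjusted p = 0.0014 from limma), or 0.998 with a pseudocount of 1. Hepatocyte markers, of cells that make much C3, had a summed FPKM of 0.0668 to 0.465 in NC, 0 to 0.224 in SFRP2 siRNA and 0.533 to 0.662 in RAB6A siRNA over 6 of 6 listed genes. None of these 6 had a mean of 0.5 FPKM, and Alb was at 0.314 ± 0.0597 FPKM in RAB6A siRNA. Fibroblast markers had a summed FPKM of 1.42 to 2.96 in NC, 1.84 to 2.86 in SFRP2 siRNA and 2.26 to 3.45 in RAB6A siRNA. These fibroblast ranges overlapped. The part of either marker list in the C3 difference was not tested.

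The ratio of Cfp to C3 was lowest in the 3 RAB6A siRNA libraries. Cfp had 49.7 ± 5.12 times the FPKM of C3 in NC, 53.9 ± 7.46 times in SFRP2 siRNA and 18.6 ± 7.30 times in RAB6A siRNA libraries (SD, n = 3). The RAB6A siRNA ratios, from 14.1 to 27.0, lay below those of NC, from 44.3 to 54.4, with an exact permutation p of 0.1. For SFRP2 siRNA against NC the exact permutation p was 0.4.

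**Figure D2:**
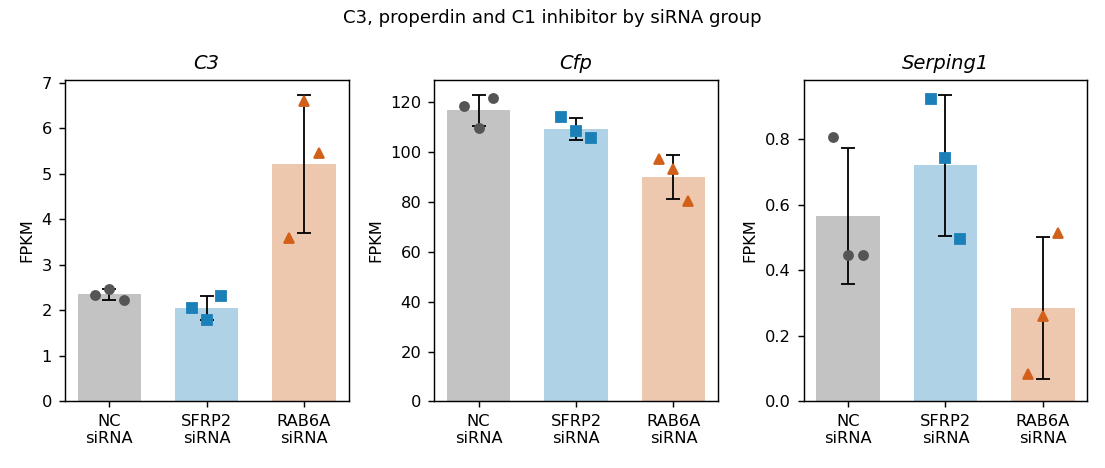
FPKM of C3, Cfp and Serping1 in each library, with the mean and SD of each group of 3. The RAB6A siRNA libraries lie above the others for C3 and below the others for Cfp, while for Serping1 the groups overlap.

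Cfb, the protease subunit of the alternative convertase, had 0.102, 0.173 and 0.0666 FPKM in NC and 0.0960, 0.109 and 0.0102 FPKM in SFRP2 siRNA libraries. It had 0.127, 0.131 and 0.119 FPKM in RAB6A siRNA libraries. The counts were 1 to 23 reads, so Cfb did not pass the filter of a mean of 0.5 FPKM, on the deposited values, and was not tested. RAB6A siRNA libraries overlapped those of NC and lay above those of SFRP2 siRNA. With no filter on low values, that difference had an adjusted p of 0.296 (limma).

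C2, the protease subunit of the classical convertase, had 0.161, 0.104 and 0.225 FPKM in NC and 0.280, 0.193 and 0.104 FPKM in SFRP2 siRNA libraries. In RAB6A siRNA libraries it had 0.0782, 0.0887 and 0.0710 FPKM, from 9 to 13 reads each. These 3 values lay below the 6 others, and the RAB6A siRNA mean was 0.485 times that of NC. C2 did not pass the filter, and with no filter the adjusted p was 0.140 against NC and 0.124 against SFRP2 siRNA (limma). At this depth the difference was not resolved.

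Levels of C2 and Cfb need care, since exons of several genes overlap at their locus. Both genes lie side by side on the minus strand of chromosome 17, Cfb at chr17:34856374-34862518 (ENSMUSG00000090231) and C2 at chr17:34862604-34898265 (ENSMUSG00000024371). A readthrough gene across both, Gm20547 (ENSMUSG00000092511, chr17:34856412-34882042), shares 2246 of the 2825 exon bases of Cfb, or 79.5%. C2 shares 1817 of its 3872 exon bases, or 46.9%, of which 1656 with Gm20547 and 161 with Zbtb12 on the other strand. Gm20547 has no exon base of its own and is not listed in the table. Among protein-coding genes of GENCODE M21, 2 of 184 with no exon base of their own are listed (1.09%), against 90.7% of 6375 with some shared bases and 71.8% of 15469 with none. By default, featureCounts leaves out reads that overlap more than 1 gene, and the values of Cfb and C2 are read here as reads on their own bases divided by the full exon length, which understates the levels. Per kilobase of its own exon bases, Cfb had a mean of 0.506 FPKM over the 9 libraries, 4.88 times the deposited value, and C2 had 0.273 FPKM, 1.88 times the deposited value. The C2 factor treats the 161 bases shared with Zbtb12 as lost, and would be smaller if reads were counted by strand. Each factor is the same in every library, so that ratios between groups are not moved by it.

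**Figure D3:**
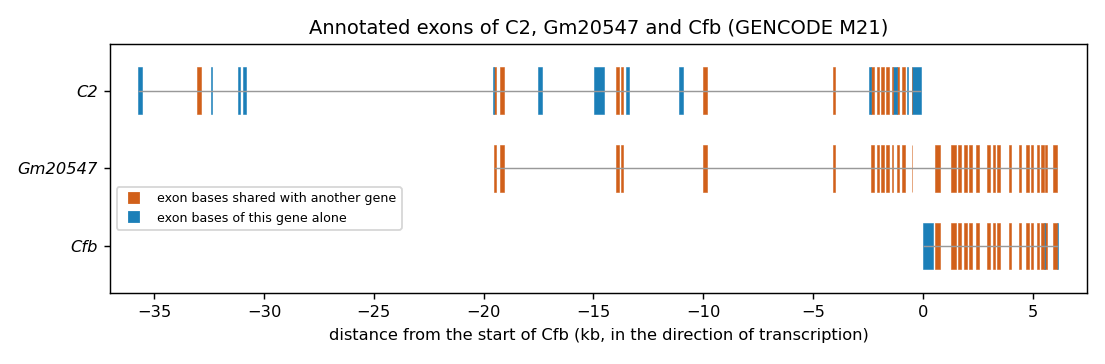
Exon bases of Cfb and C2 and of the readthrough gene Gm20547, to scale, by distance in kb from the start of Cfb in the direction of transcription, with bases of 1 gene alone in blue and bases shared with another gene in orange. Shared bases make up 79.5% of the Cfb exons, 46.9% of the C2 exons and all of Gm20547.

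All 3 C1q chains were low, and C1qa and C1qc were near the limit of detection. The genes lie in a cluster on the minus strand of chromosome 4, C1qb at chr4:136880129-136886187 (ENSMUSG00000036905), C1qc at chr4:136889804-136893065 (ENSMUSG00000036896) and C1qa at chr4:136895917-136898803 (ENSMUSG00000036887). C1qb was the highest of the 3 chains in 9 of 9 libraries. It had 0.353, 0.858 and 0.562 FPKM in NC, 0.453, 0.615 and 0.265 FPKM in SFRP2 siRNA and 0.885, 0.437 and 0.224 FPKM in RAB6A siRNA libraries, from 8 to 44 reads. The 3 groups overlapped throughout, with the highest and the lowest C1qb value of all 9 libraries both in RAB6A siRNA. Its log2 fold change with RAB6A siRNA against NC was -0.25 (SE 0.47, 95% confidence interval -1.34 to 0.85, adjusted p = 0.649 from limma), an interval that leaves room for a change of more than 1 on the log2 scale in the lower direction.

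C1qa had 0.139, 0.143 and 0.0452 FPKM in NC, 0.284, 0.148 and 0.0554 FPKM in SFRP2 siRNA and 0.0529, 0.178 and 0.176 FPKM in RAB6A siRNA libraries, from 2 to 12 reads. C1qc had 0.0498, 0.0220 and 0.0974 FPKM in NC, 0.0766, 0 and 0.0894 FPKM in SFRP2 siRNA and 0.0855, 0.0821 and 0.190 FPKM in RAB6A siRNA libraries. The C1qc value of 0 in SFRP2 siRNA replicate 2 allows a level of up to 0.0400 FPKM, that of 3 independent reads. This limit covers counting error alone. C1qc counts were all even, from 0 to 12 reads per library. If the mates of each fragment are counted separately, the limit is higher than this. Neither gene was tested, and their groups overlapped. Summed over the 3 chains, C1q had 0.756 ± 0.244 FPKM in NC, 0.662 ± 0.220 FPKM in SFRP2 siRNA and 0.770 ± 0.226 FPKM in RAB6A siRNA (SD, n = 3).

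Serping1, which encodes the C1 inhibitor, lies at chr2:84765387-84775444 (ENSMUSG00000023224). It had 0.806, 0.447 and 0.445 FPKM in NC and 0.923, 0.741 and 0.495 FPKM in SFRP2 siRNA libraries. In RAB6A siRNA libraries it had 0.0828, 0.261 and 0.512 FPKM, from 7, 23 and 39 reads. The first 2 of these lay below all other libraries, and the third lay among them. Serping1 did not pass the filter for RAB6A siRNA against NC, where the ratio of means was 0.504 and the adjusted p with no filter was 0.196 (limma). Against SFRP2 siRNA it passed the filter through the SFRP2 siRNA libraries, and the log2 fold change was -1.22 (SE 0.49, 95% confidence interval -2.38 to -0.06, adjusted p = 0.0560 from limma). That result missed the threshold but passed it in 6 of the 14 settings run, among them the fit without RAB6A siRNA replicate 3, with a log2 fold change of -1.64 and an adjusted p of 0.0177 (limma).

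RAB6A siRNA against NC gave 1 member higher (C3) and 1 lower (Cfp) of 3 tested. Of all 12712 genes tested, 74.1% were called, 37.6% higher and 36.5% lower, so that a call in this comparison was the common outcome. C3 was the member past the fold threshold, as were 30.1% of all genes. Groups did not overlap for 2 of the 3 members tested, C3 and Cfp, and for 77.4% of all genes tested. C2, below the filter, did not overlap either. In RAB6A siRNA against SFRP2 siRNA, 2 of 3 members tested were called, C3 higher and Cfp lower, against 73.4% of 12764 genes in all, 37.6% higher and 35.8% lower. C3 was again the member past the fold threshold, which 31.1% of genes passed. Groups did not overlap for 2 of the 3 members tested, C3 and Cfp, against 77% of genes tested. C2 and Cfb, below the filter, did not overlap either. Both comparisons hold the same RAB6A siRNA libraries.

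SFRP2 siRNA against NC gave no call among the 4 members tested, and 0% of 12017 genes passed the test (limma), with 2220 genes at an unadjusted p under 0.05 and 42 genes called by voom on recovered reads, none of them a member. C3 had a log2 fold change of -0.19 (SE 0.11, 95% confidence interval -0.46 to 0.07, adjusted p = 0.373 from limma). For Cfp it was -0.09 (SE 0.06, 95% confidence interval -0.22 to 0.04, adjusted p = 0.395 from limma), so that a change past the fold threshold lies outside the interval for both genes. For C1qb it was -0.33 (SE 0.38, 95% confidence interval -1.24 to 0.58) and for Serping1 0.31 (SE 0.31, 95% confidence interval -0.42 to 1.04), with adjusted p of 0.658 and 0.608 (limma). These 2 intervals are wide, and the depth of the data limits what can be said. Groups did not overlap for 0 of the 4 members tested and for 24.7% of all genes tested. The groups of the 4 members below the filter overlapped too.

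**Figure D4:**
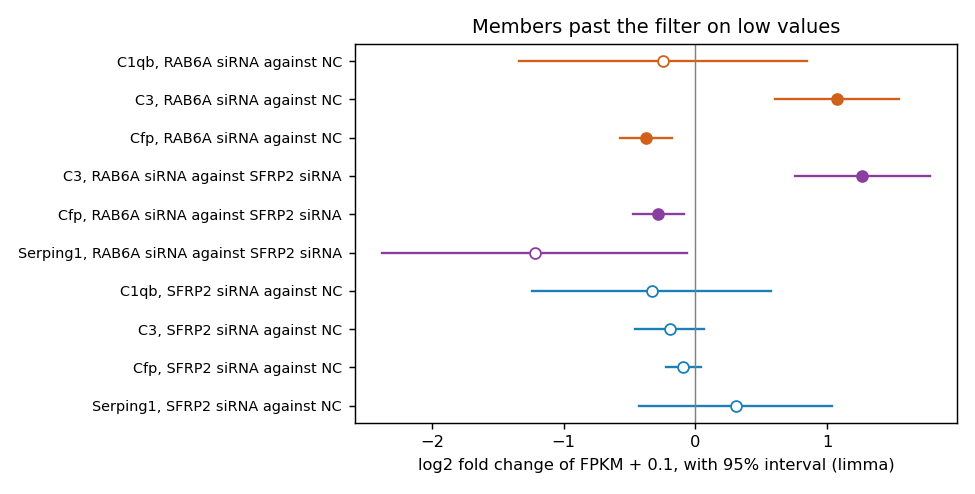
Log2 fold changes of the members tested in each of the 3 comparisons, with 95% confidence intervals from limma. With RAB6A siRNA, the intervals of C3 lie above 0 and those of Cfp below 0 against both other groups, and with SFRP2 siRNA against NC every interval spans 0.

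Other complement genes, and transcription factors with textbook roles at such genes, were described from 5 lists with 63 genes, of which 53 were in the table. In RAB6A siRNA against NC, 26 passed the filter, 8 were higher, 14 were lower and 4 were not called. Their median log2 fold change was -0.27, against 0.03 over all genes tested. By list, it was 0.50 for classical and lectin pathway genes, -0.07 for regulators, -0.22 for receptors and -0.60 for transcription factors. The transcription factors made up 11 of the 26 tested and 7 of the 14 lower. The shares over all genes, 74.1% called, 37.6% higher and 36.5% lower, apply to these counts and to those of each list. Adjusted p of the called genes were 0.0274 or lower (limma). In SFRP2 siRNA against NC, 0 of 24 were called by limma, and voom called 2, Itgb2 and Irf1.

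Of classical and lectin pathway genes other than the members, 4 of 15 were tested in RAB6A siRNA against NC, and 2 were higher and 1 lower. Colec12, a collectin of the cell surface, fell from 46.5 ± 2.42 to 11.7 ± 0.619 FPKM, a log2 fold change of -1.98. C1ra, a protease that binds C1q, rose from 3.11 ± 0.146 to 4.55 ± 0.922 FPKM (log2 fold change 0.52), and Fcna, the soluble lectin ficolin A, from 1.20 ± 0.0629 to 1.73 ± 0.333 FPKM (0.48). The Fcna call was lost with no filter (adjusted p = 0.0629, limma) and with voom (adjusted p = 0.0575), and also without NC replicate 1 (0.0649), NC replicate 2 (0.0774), RAB6A siRNA replicate 1 (0.0840) or RAB6A siRNA replicate 2 (0.0917). C1ra and C1rb are near-identical copies, and reads may be split between them. C1rb was not called by limma on FPKM, but voom called it higher (log2 fold change 0.95, adjusted p = 0.0218), as did limma without RAB6A siRNA replicate 3 (adjusted p = 0.0209). Of 8 alternative and terminal pathway genes, 5 were listed and 0 passed the filter.

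Among 18 soluble and membrane regulators, 4 were tested, and 1 was higher and 2 lower. Clu, or clusterin, an inhibitor of the membrane attack complex, rose from 13.8 ± 1.36 to 42.8 ± 2.19 FPKM (log2 fold change 1.63). Cr1l, also called Crry, the regulator that protects mouse cells from C3 deposition, fell from 8.72 ± 0.201 to 5.91 ± 0.319 FPKM (-0.56). C1qbp, a mostly mitochondrial protein named for its binding of C1q, fell from 60.0 ± 1.19 to 45.6 ± 1.05 FPKM (-0.40). Cd59a was not called, except without RAB6A siRNA replicate 1 (log2 fold change 0.37, adjusted p = 0.0206, limma) and with the replicate block.

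Of 10 receptors for complement fragments, 7 were tested, with 2 higher and 4 lower. C3ar1, the receptor for the C3a fragment of C3, fell from 188 ± 10.6 to 22.8 ± 0.986 FPKM, a log2 fold change of -3.04, in the libraries where C3 was higher. C5ar1, the receptor for C5a, fell from 7.51 ± 0.514 to 3.08 ± 0.539 FPKM (-1.27). Calr, a chaperone that also acts as a partner in C1q uptake, and Lrp1, a scavenger receptor, were lower by log2 fold changes of -0.33 and -0.22. The Lrp1 call was lost without NC replicate 1 (adjusted p = 0.0585, limma) or NC replicate 3 (0.0557), and after quantile normalization (log2 fold change -0.07). Itgb2, the shared beta chain of complement receptors 3 and 4, rose from 90.9 ± 3.49 FPKM in NC to between 125 and 136 FPKM (0.52), while its partner Itgam was not called. Cd93 went from 0.214 ± 0.0281 to 1.04 ± 0.0263 FPKM (1.86), and passed the filter only through the RAB6A siRNA libraries.

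Of 12 transcription factors with textbook roles at complement genes, 11 were tested, with 3 higher and 7 lower. Maf, a factor of macrophage C1q expression, had 13.5 ± 1.87 FPKM in NC and 0.422 ± 0.0704 FPKM in RAB6A siRNA libraries (log2 fold change -4.71), and passed the filter through the NC libraries. Cebpd, of the C/EBP family, fell from 32.2 ± 0.803 to 8.03 ± 0.244 FPKM (-1.99), and Nr1h3, the liver X receptor alpha, from 2.98 ± 0.294 to 0.725 ± 0.0861 FPKM (-1.90). Irf1, Spi1 (which encodes PU.1), Nfkb1 and Rela were also lower, by log2 fold changes of -1.09, -1.05, -0.60 and -0.32. Irf8 and Nfe2l2 were among those higher, by 0.53 and 0.38. Cebpb was not called, except without RAB6A siRNA replicate 3 (log2 fold change 0.44, adjusted p = 0.0109, limma).

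**Figure D5:**
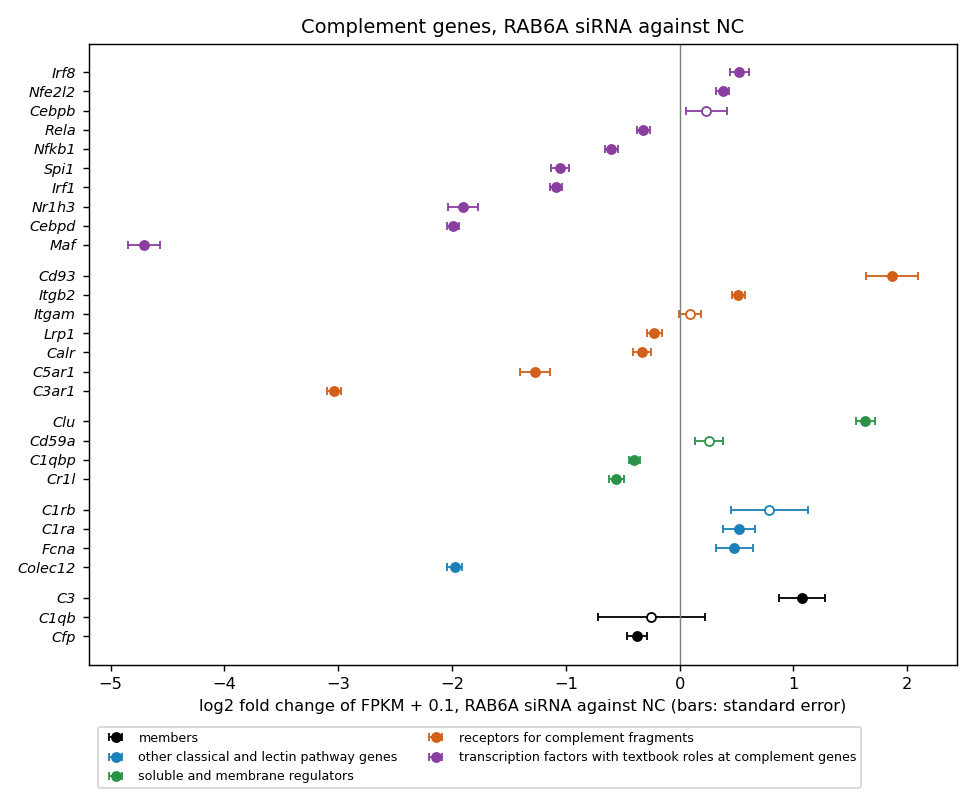
Log2 fold changes of FPKM + 0.1 with RAB6A siRNA against NC for members and for genes of the other lists tested and named here. Genes are grouped by list, with standard errors as bars and filled points for adjusted p under 0.05. C3 lies to the right of 0 and Cfp to the left, and the points run from -4.71 for Maf to 1.86 for Cd93.

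In RAB6A siRNA against SFRP2 siRNA, 26 genes of these lists were tested, of which 8 were higher and 13 lower, with adjusted p of 0.0148 or lower (limma). Of all 12764 genes tested in this comparison, 73.4% were called, 37.6% higher and 35.8% lower. C3ar1 had a log2 fold change of -2.97 there, Colec12 of -1.86, Clu of 1.67 and Maf of -4.94. Lrp1, which was lower against NC, had -0.01 and was not called. This comparison shares the RAB6A siRNA libraries with the one against NC and is not independent of it.

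Genes with a pattern most like that of a member were found by the root-mean-square difference of log2(FPKM + 0.1) over the 9 libraries, each centred on its own mean, among 12548 genes with a mean of at least 0.5 FPKM. For Cfp they were Ranbp3 (0.0358), Clstn1 (0.0416) and Actb (0.0421). Actb, the gene of beta-actin, had 976 ± 26.9 FPKM in NC, 909 ± 41.8 FPKM in SFRP2 siRNA and 757 ± 39.0 FPKM in RAB6A siRNA. For C3 they were Lat (0.120), Hebp2 (0.168) and Smox (0.178). Smox, which encodes spermine oxidase, had 9.95 ± 0.348 FPKM in NC, 8.40 ± 1.26 FPKM in SFRP2 siRNA and 22.9 ± 2.08 FPKM in RAB6A siRNA. For C1qb they were Gm15753, Cldn20 and Gm8319, with differences of 0.355 to 0.377, and for Serping1 they were Gm14275, Gm20257 and Scg2, with 0.282 to 0.291. The profiles of C1qb and Serping1 rest on at most 87 reads per library.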

How the data were processed

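The mRNA-seq libraries were paired-end. FPKM values for each gene in each library were deposited by the authors. The notes of the submitters name HISAT2, featureCounts and Subread, and the genome build, annotation and strand setting are not given in the sources used here. Of 28137 Ensembl identifiers, 27533 were named from GENCODE M21 (GRCm38). FPKM times exon length gave whole multiples of 1 step per library, within 0.03 of a read in all 9 libraries for 98.4% of named genes. These recovered reads state the depth. Mates may be counted separately, in which case a floor of 3 reads is too low. Floors of 3 reads cover counting error only.

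DESeq2, the tool of the study, was not used here, since the deposited values are not counts. Instead, limma 3.58.1 in R 4.3.3 (lmFit, eBayes with trend) was fitted on log2(FPKM + 0.1) for genes with a mean of at least 0.5 FPKM over the 6 libraries compared. Fold changes are on that scale, which understates changes of low genes. Calls needed a Benjamini-Hochberg adjusted p under 0.05 over all genes tested. Single members also had an exact permutation test. The fit was tested on simulated data. Alternatives were the pseudocount, filter, scaling, trend, libraries in the fit, replicate block, each library left out and, added after seeing the data, voom on recovered reads and levels per own exon base. Named genes are the members, the targeted genes, listed complement genes with a mean of at least 0.5 FPKM over 9 libraries, the 3 genes most like each such member, and genes with overlapping exons. The members and lists were chosen with earlier results of these data known. Values of 2 listed genes are not reported here.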

Additional observations from a re-analysis of the deposited data

How the results depend on the processing

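Of the recomputed values, 251 stayed on their side of the threshold in the same direction or, for counts and values with no test, close to the main value. These 251 include values that were not called in any setting. Of the rest, 5 counts or levels moved, 1 tested value changed sign, 6 gained a call and 1 lost its call. C1qb, never called, changed sign against NC without RAB6A siRNA replicate 3 (from -0.25 to 0.14, range 0.14 to -0.52 with 1 library left out) and against SFRP2 siRNA, where it was below the filter, without SFRP2 siRNA replicate 3 (from 0.08 to -0.18). For SFRP2 siRNA against NC, voom on recovered reads called 42 genes (7 higher), 2 of them in the other complement lists, Itgb2 (log2 fold change -0.28) and Irf1 (-0.31), each with an adjusted p of 0.0436 (limma). Leaving out 1 library at a time gave 0 to 1 genes, the 1 without NC replicate 1. For RAB6A siRNA against SFRP2 siRNA, Cfp ran from -0.34 to -0.20 with 1 library left out and lost its call without SFRP2 siRNA replicate 1 (-0.25, adjusted p = 0.0572). Serping1 in that comparison passed the threshold with a pseudocount of 1 (-0.43, adjusted p = 0.0426), median-of-ratios scaling (-1.25, 0.0489), quantile normalization (-2.0, 0.00881), all 9 libraries in the fit (-1.22, 0.0310) and voom (-1.64, 0.00935), with -1.64 to -0.77 when 1 library was left out. Without SFRP2 siRNA replicate 1 or 2 it did not pass the filter. The cause was not tested. Per own exon bases, the mean of C2 was 0.273 and that of Cfb 0.506 FPKM.

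Libraries with the same replicate number did not deviate together, with correlations of -0.08 to 0.05. With so few libraries per group, this cannot settle whether the numbers pair the samples. With the number as a replicate block, 9103 genes were called in RAB6A siRNA against NC, 0 in SFRP2 siRNA against NC and 9159 in RAB6A siRNA against SFRP2 siRNA, and C3 (adjusted p = 0.0024, limma) and Cfp (adjusted p = 0.0132) kept their calls against NC. In the other lists the block lost Fcna (adjusted p = 0.0514) and gained C1rb (0.0364) and Cd59a (0.0480) against NC. Reads per library limit the 6 members below 1 FPKM.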

Other observations

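Of the terminal and alternative pathway genes below the filter, Cfd, which encodes factor D, had 0, 0.138 and 0.0510 FPKM in NC, 0, 0 and 0.0624 FPKM in SFRP2 siRNA and 0.597, 0.803 and 0.166 FPKM in RAB6A siRNA libraries, with 28 reads at most. C8g, a chain of the membrane attack complex, had 0.290, 0.114 and 0.0788 FPKM in NC, 0.0991, 0.155 and 0.174 FPKM in SFRP2 siRNA and 0.940, 0.584 and 0.307 FPKM in RAB6A siRNA libraries, with 51 reads at most. For both genes the RAB6A siRNA libraries lay above the 6 others. They were singled out after their values were seen and did not pass the filter. With no filter on low values, adjusted p from limma was 0.0351 for Cfd and 0.0478 for C8g against NC, and 0.0123 and 0.0259 against SFRP2 siRNA.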
